A study of Rattus norvegicus with 6 samples.

Results

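The acetylation and sulfation enzymes of aromatic amine metabolism were measured here as 9 rat genes fixed by symbol: the arylamine N-acetyltransferases Nat1 and Nat2, the cytosolic sulfotransferases Sult1a1, Sult1b1, Sult1c2, Sult1c3 and Sult1d1, and the sulfate donor synthases Papss1 and Papss2. Each probe was assigned to a gene through its RefSeq accession, and 8 of the 9 genes had a probe that matched. Papss1 had none that matched, and its expression is not analysed here. Whether a probe without a matched symbol reads Papss1 was not tested. Of 19 probes of these genes, 17 were bright enough to test, that is, well above background on every array of 1 group or both. This left 7 genes among the 31087 genes tested. Of these 31087, 12015 had a RefSeq symbol. Each of the others is a probe accession without a symbol, counted as a gene, and shares of all genes below include both kinds. The tissue was renal cortex of male Sprague-Dawley (Crl:CD(SD)) rats, bought at 5 weeks of age. There were 3 animals given o-anisidine hydrochloride, an aromatic amine salt, at 700 mg/kg/day for 4 weeks, and 3 control animals given water for 4 weeks. The study used 1 dose and 1 time, and how the compound was given is not stated in the labels. Total RNA of each animal was hybridised to 1 single-colour Agilent array.

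An aromatic amine such as o-anisidine can be acetylated on its nitrogen by N-acetyltransferases, which take the acetyl group from acetyl-CoA, and this competes with oxidation of the same nitrogen by cytochromes P450. The oxidised N-hydroxy amine can in turn be acetylated or sulfated on its oxygen, which gives unstable esters that bind DNA and protein. Sulfotransferases take their sulfate from PAPS (phosphoadenosine phosphosulfate), which the PAPS synthases make from ATP and inorganic sulfate. They also sulfate phenols, including those formed when aromatic amines are oxidised on the ring, and the products leave the body through kidney and bile.

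All values below are log2 signals relative to the 75th percentile of the array, so that 0 is the signal of the probe at that percentile. A value of a gene is that of its brightest kept probe, and levels of different probes are not compared with each other. Each array had 41670 to 43630 of 61657 probes well above background, and no spot was saturated. Across the genes tested, arrays correlated at 0.992 to 0.993 within the o-anisidine group, 0.993 to 0.994 within the control group and 0.990 to 0.992 between groups. The 3 controls and o-anisidine 3 shared 1 slide and 1 scan, and the second slide held o-anisidine 1 and 2. Replicate numbers follow the scanner files, since the columns of the authors' value table matched those files in another order within each group. All 12 proximal tubule markers (among them Slc34a1, Lrp2 and Slc22a6) were well above background on all 6 arrays.

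Sult1a1 and Sult1b1 had the largest differences of the set. Sult1a1, the main phenol sulfotransferase, had a fitted level 1.91-fold higher in o-anisidine animals. Sult1b1, which sulfates phenols and thyroid hormones, had a fitted level 2.01-fold higher. Papss2 and Nat1 differed by less, in the same direction, and Sult1c2 and Nat2 lay lower in o-anisidine animals on average. None of the 7 genes tested passed the adjusted threshold (0 of 7, limma with Benjamini-Hochberg adjustment over all genes, two-sided, threshold 0.05), which 0.0611% of all genes passed (0.0354% higher and 0.0257% lower). Without adjustment, p was under 0.05 for 3 higher (Sult1a1, Sult1b1 and Papss2) and 1 lower (Sult1c2) of the 7, against 6.36% and 5.14% of all genes. In 4 of the 7 (Nat1, Sult1a1, Sult1b1 and Papss2) every o-anisidine array lay above every control array, a pattern that 9.55% of all genes had. In 0 of the 7 did every o-anisidine array lie below every control array, as 8.88% of all genes did, so that 4 of 7 did not overlap in one direction or the other, against 18.4% of all genes. The median log2 change of the 7 genes was 0.33, against 0.00 for all genes tested, and 5 of 7 were above 0, against 50.9% of all genes. That median was 0.15 without o-anisidine 3 and 0.20 without control 3. The genes were chosen with earlier results of these data known, so the comparison with all genes describes the set and tests nothing. In bulk tissue, fewer cells of a type and less RNA per cell cannot be told apart, which holds for every difference below.

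**Figure D1:**
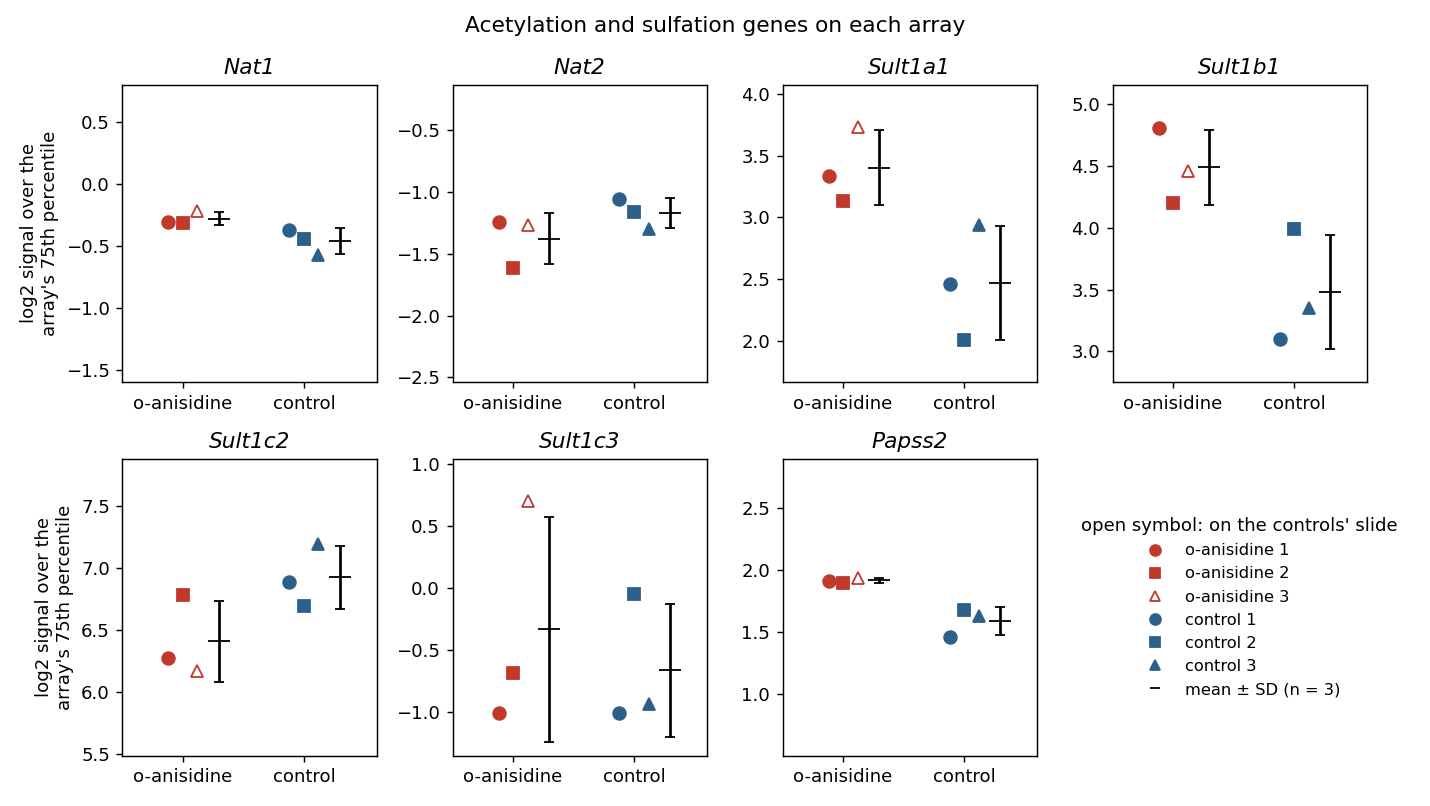
Log2 signal relative to the array's 75th percentile (vertical axis, each panel spanning the same number of log2 units) on each o-anisidine and control array for the 7 genes tested; bars are mean ± SD (n = 3). Papss2 is tight within the o-anisidine group (1.90 to 1.94) and above all controls (1.46 to 1.68), while Sult1c3 is set apart by o-anisidine 3 at 0.70.

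The acetyltransferases acetylate the amine itself and its N-hydroxy form, and both differed by less than the larger sulfotransferase differences. Nat1 had log2 signals of -0.30, -0.31 and -0.22 in o-anisidine animals (arrays 1, 2 and 3, the order used throughout), against -0.37, -0.44 and -0.58 in controls. Every o-anisidine array was above every control array, and the nearest, o-anisidine 2 and control 1, were close to each other. The log2 change was 0.18 (SE 0.08, 95% confidence interval -0.02 to 0.38, adjusted p = 0.458), and within the slide that held both groups it was 0.24. Nat1 had a single probe, so no second probe bears on it.

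Nat2 had log2 signals of -1.24, -1.62 and -1.27 in o-anisidine animals, against -1.05, -1.16 and -1.30 in controls. The groups overlapped, with only o-anisidine 2 below all 3 controls. The log2 change was -0.21 (SE 0.13, interval -0.52 to 0.11, adjusted p = 0.588), and a second probe gave -0.25 (SE 0.11, adjusted p over all probes 0.444). Within the slide that held both groups the 2 probes gave -0.10 and -0.14. As a ratio of o-anisidine to control, the interval of Nat2 ran between 0.698 and 1.08, so it held both lower and slightly higher levels in o-anisidine animals. The third gene of the rat family, Nat3, was not well above background at either of its 2 probes on any array.

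Among the sulfotransferases, Sult1a1 had log2 signals of 3.34, 3.14 and 3.73 in o-anisidine animals, against 2.46, 2.01 and 2.94 in controls. The groups did not overlap, and the highest control, control 3, lay just under the lowest o-anisidine array. Its log2 change was 0.93 (SE 0.27, interval 0.28 to 1.58, adjusted p = 0.301). The mean was 3.40 ± 0.30 in o-anisidine animals and 2.47 ± 0.46 in controls (SD, n = 3 each), so the change was about as large as the spread between the lowest and highest control. The other probe of Sult1a1 gave 2.35, 2.12 and 2.69 in o-anisidine animals and 1.44, 0.92 and 1.98 in controls, and a log2 change of 0.94 with SE 0.29 (adjusted p over all probes 0.317). Both probes ranked the 6 arrays in the same order. Within the slide that held both groups, the log2 change of Sult1a1 was 1.26.

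Sult1b1 had log2 signals of 4.81, 4.20 and 4.46 in o-anisidine animals, against 3.10, 3.99 and 3.35 in controls. The groups did not overlap, though control 2 stood well above the other two controls and close to o-anisidine 2. The log2 change was 1.01 (SE 0.26, interval 0.36 to 1.65, adjusted p = 0.270), and it was 0.98 within the slide that held both groups. Its other 2 probes gave log2 changes of 1.00 (SE 0.23) and 0.94 (SE 0.23), with adjusted p over all probes of 0.213 and 0.232. On all 3 probes o-anisidine 1 was the highest array and control 1 the lowest. The order of the animals thus differed from that of Sult1a1, for which o-anisidine 3 was the highest and control 2 the lowest array.

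Sult1c2, a form present in rat kidney, was the gene of the set with the largest fitted difference downwards. Its brightest probe had log2 signals of 6.27, 6.78 and 6.17 in o-anisidine animals, against 6.89, 6.69 and 7.20 in controls. The groups overlapped, because o-anisidine 2 lay above control 2. The log2 change was -0.52 (SE 0.20, interval -1.01 to -0.02, adjusted p = 0.423), and within the slide that held both groups it was -0.76. The 3 probes of Sult1c2 disagreed in size. Probe A_44_P788758 had 3.79, 4.26 and 3.80 in o-anisidine animals against 4.48, 4.36 and 4.71 in controls, without overlap, and gave -0.57 (SE 0.16, adjusted p over all probes 0.290). Over all kept probes, 9.60% had every o-anisidine array below every control array. Probe A_44_P548024 had 5.25, 5.19 and 5.18 in o-anisidine animals against 5.10, 5.27 and 5.84 in controls. On it only control 3 stood apart, and the log2 change was -0.20 (SE 0.19, adjusted p over all probes 0.726).

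Sult1c2a, a paralogue with a near-identical name, bears on these probes. Its brightest probe had log2 signals of 7.48, 7.10 and 7.42 in o-anisidine animals, against 6.80, 7.08 and 7.65 in controls. Its other probe had 5.95, 5.78 and 5.94 in o-anisidine animals, against 5.60, 5.75 and 6.48 in controls. Both had their highest value on control 3 and their lowest on control 1, as did the Sult1c2 probe with the smallest change, and their log2 changes were 0.15 (SE 0.23) and -0.05 (SE 0.23). Control 1 was not the lowest array on the other two Sult1c2 probes, on which o-anisidine 1 and 3 were lowest. The probe letters were not used here, and whether a Sult1c2 probe also reads Sult1c2a was not tested.

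**Figure D2:**
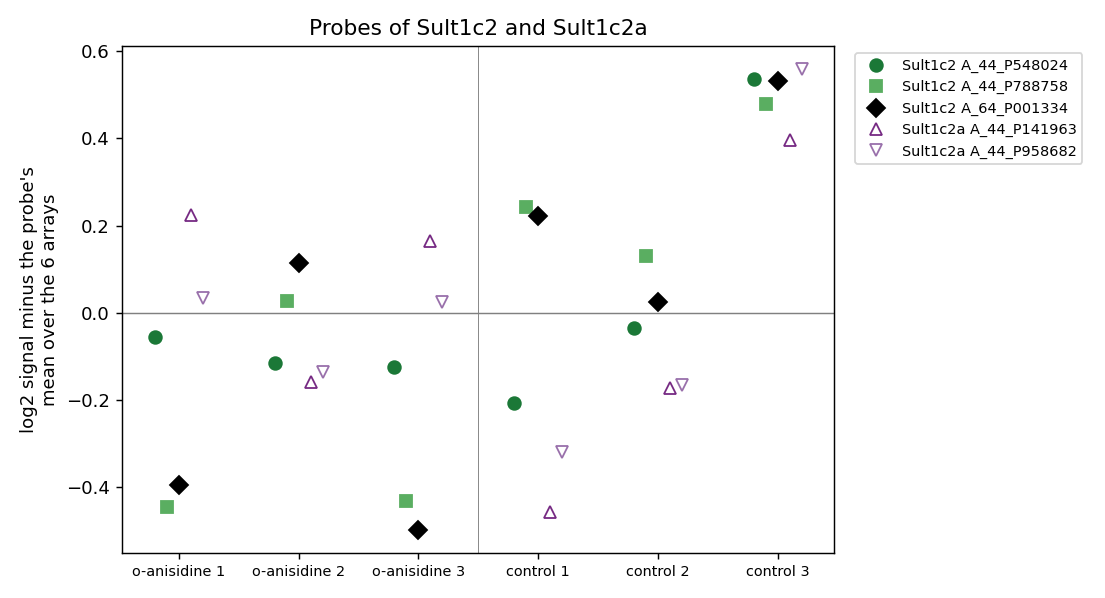
Log2 signal of each probe of Sult1c2 (filled symbols) and Sult1c2a (open symbols) on the 6 arrays, minus that probe's own mean over the 6 arrays. Control 3 is the highest array on all 5 probes, while Sult1c2 probes A_64_P001334 and A_44_P788758 are lowest on o-anisidine 1 and 3, where the Sult1c2a probes are not low.

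Sult1c3, known in rat liver as the form that sulfates N-hydroxy arylamines, varied most between animals. Its log2 signals were -1.01, -0.69 and 0.70 in o-anisidine animals, against -1.01, -0.05 and -0.94 in controls. The groups overlapped fully apart from o-anisidine 3, which was the highest of the 6 arrays on both probes, and control 2 was the second highest on both. The mean was -0.33 ± 0.91 in o-anisidine animals and -0.66 ± 0.54 in controls (SD, n = 3 each). The log2 change was 0.33 (SE 0.50, interval -0.88 to 1.54, adjusted p = 0.832) and the other probe gave 0.39 (SE 0.52). A single animal decided its size and sign: the log2 change was -0.19 without o-anisidine 3 and 1.37 within the slide that held both groups, where o-anisidine 3 is the only treated array. It was 0.16, 0.64 and 0.20 without control 1, 2 or 3, and 0.67 and 0.51 without o-anisidine 1 or 2.

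Sult1d1, which sulfates dopamine and other amines in the mouse, was not well above background on any of the 6 arrays at either of its 2 probes. One probe had log2 signals of -8.26, -8.16 and -8.11 in o-anisidine animals, against -8.33, -7.45 and -7.90 in controls. The other had -7.88, -7.80 and -7.90 in o-anisidine animals, against -8.22, -8.15 and -8.22 in controls. All 12 readings lay under the dimmest spot of the same array that counted as above background. That spot had -5.98, -5.85 and -5.80 in o-anisidine animals, against -6.19, -6.07 and -6.19 in controls. No fold is given for Sult1d1, since both groups were below background.

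Papss2, a PAPS synthase like Papss1, for which no probe was matched, had the smallest spread of the set within the o-anisidine group. Its log2 signals were 1.92, 1.90 and 1.94 in o-anisidine animals, against 1.46, 1.68 and 1.63 in controls. Every o-anisidine array was above every control array, and the SD was 0.02 in o-anisidine animals and 0.11 in controls (n = 3 each). The log2 change was 0.33, or 1.25-fold (SE 0.08, interval 0.13 to 0.53, adjusted p = 0.253), the smallest adjusted p of the 7 genes, and it was 0.35 within the slide that held both groups. Of the other 3 probes, A_64_P038852 gave 0.37 (SE 0.08, adjusted p over all probes 0.182) without overlap between groups. Probes A_44_P119160 and A_44_P1071228 gave 0.22 (SE 0.13) and 0.12 (SE 0.08), with overlap. All 4 probes lay above 0, with log2 changes from 0.12 to 0.37.

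**Figure D3:**
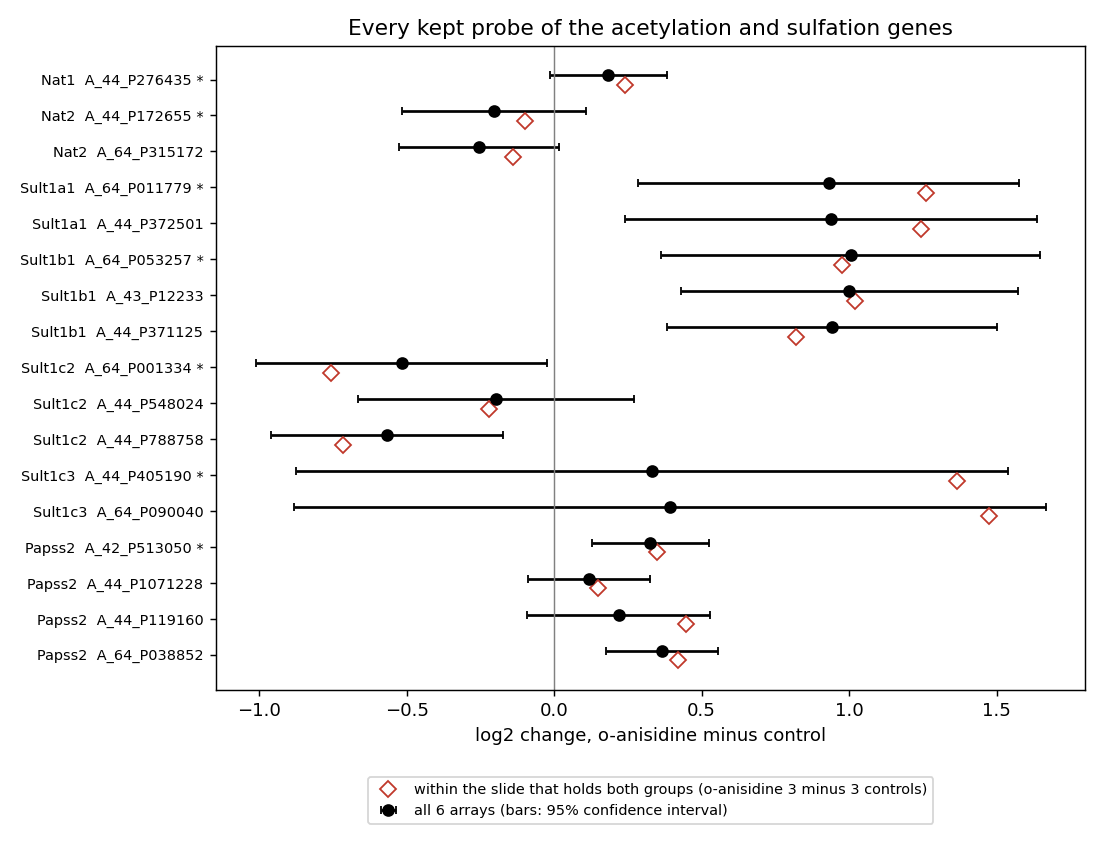
Log2 change (o-anisidine minus control) of the 17 kept probes, with 95% confidence intervals over all 6 arrays (filled) and the value within the slide that held both groups (open diamonds); asterisks mark the probe that stands for its gene. The 5 probes of Sult1a1 and Sult1b1 lie between 0.93 and 1.01, and those of Sult1c3 move most between the pooled and the within-slide value.

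Across the 17 kept probes, 12 had a log2 change above 0 and 5 below. In 8 every o-anisidine array was above every control array, against 9.17% of all 42036 kept probes. In 1 every o-anisidine array was below every control array, against 9.60% of all kept probes. Probes of 1 gene share its RNA and are not independent, and the genes were chosen with earlier results of these data known. None of the 17 passed the adjusted threshold (0 of 17, limma over all kept probes), which 0.0690% of all kept probes passed.

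The sequence before the start site of the 3 sulfotransferase genes with the largest differences is shown because these genes differed most between the groups, and because Cyp1a1, the textbook target of the aryl hydrocarbon receptor, was above background only in o-anisidine animals. The windows are the 250 bases before each RefSeq start site (GRCr8, 5′ to 3′ on the strand of the gene). Capitals mark a match to CAAAGTNCA, a core of sites for the hepatocyte nuclear factor HNF4.
Sult1a1: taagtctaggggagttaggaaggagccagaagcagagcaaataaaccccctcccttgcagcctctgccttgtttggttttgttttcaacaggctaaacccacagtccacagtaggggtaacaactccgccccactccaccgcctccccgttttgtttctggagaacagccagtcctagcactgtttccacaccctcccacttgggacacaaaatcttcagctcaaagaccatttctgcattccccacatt
Sult1b1: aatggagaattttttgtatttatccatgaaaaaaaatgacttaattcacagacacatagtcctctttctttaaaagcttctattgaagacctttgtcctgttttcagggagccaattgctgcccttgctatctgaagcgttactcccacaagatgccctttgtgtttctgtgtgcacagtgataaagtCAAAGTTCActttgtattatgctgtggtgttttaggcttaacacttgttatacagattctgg
Sult1c2: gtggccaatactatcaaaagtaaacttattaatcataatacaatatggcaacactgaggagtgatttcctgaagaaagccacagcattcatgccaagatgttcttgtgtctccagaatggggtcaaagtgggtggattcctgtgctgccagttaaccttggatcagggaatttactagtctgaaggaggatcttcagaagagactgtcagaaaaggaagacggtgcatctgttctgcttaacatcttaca
They lie at chr1:190706113-190706362 on the minus strand (Sult1a1), chr14:20771667-20771916 on the plus strand (Sult1b1) and chr9:7436731-7436980 on the plus strand (Sult1c2). RefSeq windows were matched for 7 of the 9 genes. The letters GCGTG, the core to which the aryl hydrocarbon receptor binds, were searched on both strands and are in 25.9% of all 33469 windows of this length. Neither these letters nor TGACNNNGC, the core of the antioxidant response element (10.1% of all windows), was in the windows of Sult1a1, Sult1b1, Sult1c2, Sult1c3, Sult1d1 or Papss2. Papss1, which had no matched probe, had 3 matches to GCGTG, all on the opposite strand. The match to CAAAGTNCA starts 62 bases before the start site of Sult1b1, and 1.06% of all windows hold one; this motif was chosen after the sequences were seen. GTTAAT, a half-site of the hepatocyte nuclear factor HNF1, was in 6.45% of all windows and in none of the 7, and TATAAA was in 12.9% of all windows and in those of Sult1d1 and Papss2. No searched motifs overlapped in these windows, except the 2 opposite-strand matches of TATAAA in Sult1d1. A match or its lack in these windows describes the letters and says nothing of the factor.

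The genes around these enzymes were read from lists of the same pathway, and only Cyp1a1 passed the adjusted threshold in any of them. Among 5 other sulfotransferases tested, 2 were above 0 and 3 below, with a median log2 change of -0.15. Sult4a1, a form of the brain, had -0.56 (SE 0.22, adjusted p = 0.414), and Tpst2, which sulfates protein tyrosines, had 0.11 (SE 0.11, adjusted p = 0.734). Sult1e1, Sult2a1, Sult2a2, Sult2a6 and Sult6b1 were not well above background on any array. Of 14 genes of sulfate and PAPS handling, 9 were above 0 and 5 below, with a median of 0.08. Slc26a1, the basolateral sulfate exchanger of the proximal tubule, had log2 signals of 6.14, 6.71 and 6.39 in o-anisidine animals, against 5.70, 6.16 and 5.94 in controls. The groups overlapped only through control 2, and the log2 change was 0.48 (SE 0.18, adjusted p = 0.412). Slc13a1, the apical sodium-sulfate cotransporter of the same cells, had -0.22 (SE 0.11, adjusted p = 0.520). Of 12 sulfatases and their activators, which remove sulfate groups, 4 were above 0 and 8 below, with a median of -0.12. Sumf2, a sulfatase modifying factor, had -0.13 (SE 0.07, adjusted p = 0.542) and the sulfatase Arsj had 0.15 (SE 0.18, adjusted p = 0.783).

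Of 13 genes of acetyl-CoA supply and other acetyltransferases, 7 were above 0 and 6 below, with a median log2 change of 0.00. Sat2, a polyamine and thialysine acetyltransferase, had -0.23 (SE 0.07, adjusted p = 0.327) with no overlap between groups. Nat8, which acetylates cysteine conjugates to mercapturic acids, had 0.28 (SE 0.21, adjusted p = 0.637). Of 13 genes listed for hydrolysis of acetylated amines, 12 of them hydrolases and 1 (Fmo5) a flavin monooxygenase, 6 were above 0 and 7 below, with a median of -0.02. Aadac, the arylacetamide deacetylase, had log2 signals of -1.83, -1.91 and -1.97 in o-anisidine animals, against -1.17, 0.07 and -0.69 in controls. Every o-anisidine array was below every control array, the controls were widely spread, and the log2 change was -1.31 (SE 0.30, interval -2.04 to -0.58, adjusted p = 0.212). Acy3, which deacetylates mercapturic acids, had 8.05, 8.38 and 8.34 in o-anisidine animals, against 7.74, 7.85 and 7.58 in controls. Its log2 change was 0.53 (SE 0.12, adjusted p = 0.211), again without overlap.

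Of 13 genes listed for oxidation and reduction of aromatic amines, 9 were above 0 and 4 below, with a median log2 change of 0.05. Some of them, such as Cyb5a, pass electrons to the oxidising enzymes. Cyp1a1, which oxidises aromatic amines and other flat ring systems, was the only member of these lists that rose past the threshold: it was at least 23.8-fold higher, with a mean of -1.58 in o-anisidine animals against a measured -8.20 in controls, where it was not well above background (adjusted p = 1.69e-06). For that bound each control reading was raised to that of the dimmest spot above background on its array. Cyp1a2, which N-hydroxylates many aromatic amines in liver, was not well above background on any array. Ptgs1, a cyclooxygenase whose peroxidase step can oxidise amines, had -0.43 (SE 0.10, adjusted p = 0.226) with no overlap between groups.

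The medians of 3 of these lists lay so near 0 that single arrays turned their sign. For the acetyltransferase list it was -0.02 without control 2, and -0.05, -0.07 and -0.02 without o-anisidine 1, 2 or 3. For the hydrolysis list it was 0.05 without control 3 and 0.03 without o-anisidine 2. For the oxidation and reduction list it was -0.03 without control 1 and -0.07 without o-anisidine 2. Within the slide that held both groups, the median turned to -0.03 for sulfate and PAPS handling and to -0.03 for the acetyltransferase list. The acetyltransferase median was also below 0 with quantile scaling (-0.04), with the mean of all kept probes (-0.03) and with slide as a random block (-0.04), and the hydrolysis median was 0.03 with the mean of all kept probes.

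**Figure D4:**
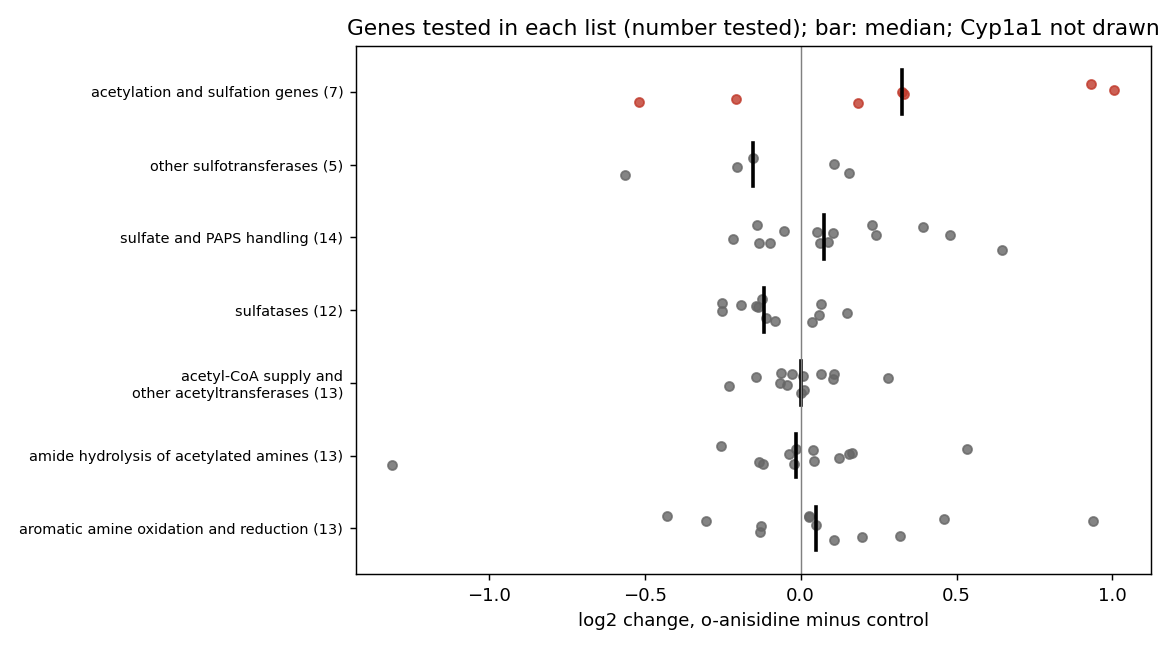
Log2 change (o-anisidine minus control) of each gene tested in the acetylation and sulfation set (top) and in the other lists of the pathway; the bar is the list's median over all its genes tested, and Cyp1a1 is left off the axis. The medians of the other lists lie between -0.15 and 0.08, against 0.33 for the set, and Aadac is the outlying point at -1.31.

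Some lists of markers of the tubule segments and of other cells differed between the groups, and their part in the results was not tested. The summed signal of the 12 proximal tubule markers, as multiples of the 75th percentile, was 2333 to 2787 on the o-anisidine arrays and 2335 to 2530 on the control arrays, with a median log2 change of 0.04. The 7 markers of the straight proximal segment, one of which is Acy3, summed to 365 to 441 on the o-anisidine arrays and 287 to 298 on the control arrays, with a median log2 change of 0.12. Acy3 carried that gap: the other 6 summed to 69.1 to 117 on the o-anisidine arrays and 67.8 to 96.2 on the control arrays, and each of the 6 overlapped between groups. The 8 collecting duct markers summed to 159 to 226 on the o-anisidine arrays, against 249 to 262 on the control arrays, and 7 of them were below 0. Aqp2, the brightest of the 8 and so the largest part of that sum, had a log2 change of -0.58 (SE 0.22), and Scnn1b had -0.55 (SE 0.07). These were the 2 of the 8 with every o-anisidine array below every control array, against 8.88% of all genes, and neither passed the threshold. The 1 marker above 0, Slc4a1, is also among the red cell markers. The median of the 8 was -0.25, and -0.09 within the slide that held both groups. The 10 red cell markers summed to 1502 to 1866 on the o-anisidine arrays, against 732 to 1009 on the control arrays, and all 10 were above 0, with 4 (Ahsp, Kel, Rhd and Hemgn) past the threshold. The 9 leukocyte markers summed to 5.22 to 6.83 on the o-anisidine arrays, against 4.49 to 5.47 on the control arrays, but 6 of the 9 were below 0 and the median log2 change was -0.10. Cd52 alone was past the threshold, and the other 8 summed to 3.71 to 4.91 on the o-anisidine arrays and 4.08 to 5.08 on the control arrays. The hepatocyte markers Alb, Apoa1, Serpina1 and Ttr did not reach the brightness required for a test. The other 4, Tf, Fgb, Apob and Cyp2c11, had log2 changes of 0.51 (SE 0.43), 1.77 (SE 0.91), 0.36 (SE 0.53) and -1.78 (SE 1.42), all with overlap between groups, and a median of 0.44. Markers of the podocyte, endothelium, fibroblast, distal tubule and urothelium lists had median log2 changes of -0.11, 0.02, -0.20, -0.02 and 0.10, with 0 genes past the threshold. In that order, 6 of 6, 2 of 6, 6 of 8, 2 of 4 and 2 of 5 genes were below 0. Some of these medians turned sign with the setting. The proximal tubule median was -0.07 with quantile scaling and -0.08 within the slide that held both groups, where the endothelium median was -0.02 and that of the distal tubule 0.10. Single arrays turned the sign of the endothelium median (-0.04 without control 3, -0.01 without o-anisidine 1), the distal tubule median (0.05 without control 2, 0.10 without o-anisidine 1) and the hepatocyte median (-0.01 without control 2).

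Genes with a symbol whose signals followed those of the 4 non-overlapping enzymes most closely over the 6 arrays were found by Pearson correlation, as a description with no test. Over 12014 genes compared, high values were common: 53, 33, 17 and 54 genes had a correlation over 0.95 with Nat1, Sult1a1, Sult1b1 and Papss2. Nat1 was closest to Ghrl (r = 0.995) and Plec (r = 0.994), and Papss2 to Mcrip2 (r = 0.994) and Ier3 (r = 0.991). Sult1a1 was closest to Hspb6 (r = 0.990) and Ppp1r14c (r = 0.987). Sult1b1 was closest to Akap14 (r = 0.990) and Gjb5 (r = 0.984). Ghrl was dim, with a mean log2 signal of -5.62 in o-anisidine animals and -6.26 in controls. The control mean lay under the dimmest spots above background on the control arrays (-6.19 to -6.07). Akap14 (-5.22 and -5.70) and Gjb5 (-4.82 and -5.79) were also near background, so their correlations rest on weak signals.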

How the data were processed

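Groups follow the sample titles. Each scanner file gives the spot intensity that the authors deposited, made by Agilent Feature Extraction (10.7.1.1), which subtracted background and removed spatial trends without scaling arrays to each other, per the file headers. Flags for detection, saturation and outliers came from the same deposited files. The array design was annotated on rn4, per the file headers. The authors' value table holds intensity scaled to about 1 at the 75th percentile, as a comparison with the scanner files showed.

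For each array, the 75th percentile over 61657 non-control probes was subtracted from the log2 signals. Of these probes, 16 with outlier flags were dropped, as were probes that no group detected on all 3 of its arrays, so that 42036 remained. Accessions were matched to RefSeq symbols (GRCr8 table, names only): 27460 probes matched. For a probe without a match, its accession stood for the gene. Nat1 is also a synonym of Slc38a3, whose probes were not counted as Nat1. Groups were compared with limma 3.58.1 (lmFit, eBayes; R 4.3.3), two-sided, with Benjamini-Hochberg adjustment over all 31087 genes, each at its brightest kept probe. The fit was tested on simulated data in 5 runs, each with 200 changed genes. It recovered 61.8% of genes changed by a log2 of 1, 89.3% at 2 and 97.9% at 4, with 46 false calls over the runs. The simulated arrays had no slide effect. Alternatives changed the background correction, scaling, dim-probe filter, variance model, slide, replicate block and arrays included. Normexp used the median spot signal, since the planned mean signal was not among the columns.

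The genes and lists were chosen with earlier results of these data known. All 9 genes are named; of each pathway list the gene with the smallest p in each direction and any past the threshold are named. Genes named beyond this rule were chosen after their values were seen.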

Additional observations from a re-analysis of the deposited data

How the results depend on the processing

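None of the 7 genes passed the adjusted threshold under any of 18 alternatives (adjusted p between 0.129 and 0.953), and 6 of the 7 kept their direction in all of them. Sult1c3 alone turned, to a log2 change of -0.19 without o-anisidine 3; leaving out 1 array at a time gave -0.19 to 0.67, and the value within the shared slide was 1.37. Over the alternatives the log2 change was 0.70 to 1.26 for Sult1a1, 0.82 to 1.26 for Sult1b1, -0.76 to -0.38 for Sult1c2, 0.26 to 0.37 for Papss2, 0.09 to 0.24 for Nat1 and -0.27 to -0.09 for Nat2. The median of the 7 genes was 0.15 to 0.37 when 1 array was left out.

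Counts over all genes, 11 higher and 8 lower, depended on the processing, and the cause was not tested. Normexp background correction gave 68 higher and 18 lower, and limma's trended, robust variance gave 91 and 29. Testing dim probes too left 5 higher, and requiring detection on all 6 arrays left 5 lower. With slide as a fixed block there were 2 and 1, and within the slide that held both groups, with a lone treated array assumed to vary like the controls, 1 and 1. Leaving out 1 array gave 2 to 16 higher and 1 to 5 lower. With the replicate number as a block there was 1 higher and 0 lower. Deviations of same-numbered arrays correlated at 0.02, 0.08 and 0.01, and not every array correlated best with its own number. The labels do not say that a number marks a shared cage, day or batch. With 3 arrays in each group, these correlations cannot decide whether the numbers pair the animals.

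Precision is limited by having 3 arrays in each group, and Sult1d1 could not be tested because its spots were within the background.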

Other observations

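Some genes of the pathway lists outside the naming rule, chosen after their values were seen, had no overlap between groups and did not pass the adjusted threshold. Cdo1, Cyb5a and Bpnt1 (log2 change 0.10, SE 0.09) lay higher in o-anisidine animals. Sult2b1 (-0.15, SE 0.08), Sumf1 (-0.11, SE 0.07) and Ces1f (-0.13, SE 0.09) lay lower. Over all genes tested, 9.55% lay higher and 8.88% lower without overlap. Cdo1, cysteine dioxygenase, the enzyme that starts the route from cysteine to taurine and sulfate, had log2 signals of -1.34, -1.93 and -0.86 in o-anisidine animals, against -1.98, -2.11 and -1.98 in controls (log2 change 0.65, SE 0.26, adjusted p = 0.428). Its highest array was o-anisidine 3, as for Sult1a1 and Sult1c3. Cyb5a, a cytochrome b5 that passes electrons to cytochromes P450, had 5.21, 5.09 and 5.26 in o-anisidine animals, against 4.54, 4.82 and 4.82 in controls (log2 change 0.46, SE 0.11, adjusted p = 0.216). Its 3 treated arrays were closer together than its controls.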
